A study of Homo sapiens with 2 samples.

Results

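The replicative helicase unwinds the DNA template ahead of the polymerases. Its motor is a ring of the 6 related ATPases MCM2 to MCM7, which is loaded on DNA at origins as an inactive double ring before S phase. The ring becomes active when CDC45 and the 4-subunit GINS complex join it, and the holocomplex is called CMG after these 3 parts. Each CMG holds 1 copy of every subunit, while cells are known to load more MCM rings than they use, and the surplus rings serve as reserve origins when replication is slowed. Transcription of these genes is controlled largely by E2F factors around the start of S phase.

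The 10 genes MCM2, MCM3, MCM4, MCM5, MCM6, MCM7, GINS1, GINS2, GINS3 and GINS4 were taken by symbol, and all 10 had 1 row each in a table of 18141 distinct symbols. The table comes from U2OS, an established human osteosarcoma line, in which cells growing asynchronously were given 0.3 µM aphidicolin, an inhibitor of the replicative DNA polymerases, for 18 h. There were 2 libraries of polyadenylated RNA, numbered 1 and 2, in this single group. No untreated library was analysed here, so the values are levels and no response to the drug was tested. The labels do not say that the libraries came from separate cultures, and the spread between them may be technical. Values are bulk averages, in which fewer cells that transcribe a gene and less RNA per cell cannot be told apart.

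The unit is RPKM, reads divided by the kilobases of exon and scaled to the library total. Whole reads were recovered from these values, and the library totals came to 13227805 reads for replicate 1 and 13020149 for replicate 2. Errors are the SD of both libraries (n = 2), and intervals are exact 95% Poisson intervals that cover counting error only. Among markers of the line, SPARC stood at 280 RPKM, VIM at 249 and COL1A1 at 209, while RUNX2 was at 8.55, ALPL at 2.23 and BGLAP at 0.277, and SP7 and IBSP were not listed. Of the 8 listed haematopoietic, epithelial and endothelial markers the 1 above 1 RPKM was EPCAM at 2.28, and the listed haematopoietic markers PTPRC and CD14 summed to 0.244 RPKM in replicate 1 and 0.185 in replicate 2.

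Promoter sequences were matched in RefSeq (GRCh38.p14) for 7 of the 10 genes, namely MCM2, MCM3, MCM6, MCM7, GINS1, GINS2 and GINS3. They are shown because E2F motifs are the best known common feature of these genes, and the level of the genes is the subject here. Windows ran from 250 bases before to 50 bases after each annotated start and were searched on both strands for TTTCGCGC, TTTGGCGC and TTCCCGCC. The first 2 motifs can overlap on opposite strands. At least 1 motif was present in 6 of the 7 genes and in 4.24% of all 35116 windows. Here and below a gene counted if any of its windows matched, while the shares over all windows are per window. The pieces below run 5′ to 3′ on the gene's strand with the matched bases in capitals. Positions count from the annotated start, with -1 as the last base before it.
MCM2 (chr3:127598404-127598433, plus strand, -7 to 23): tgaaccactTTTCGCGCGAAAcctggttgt
MCM3 (chr6:52284750-52284775, minus strand, -33 to -8): acctttggtGGCGGGAAgagttcgga
MCM3 (chr6:52284730-52284755, minus strand, -13 to 13): ttcggaagtTTTCGCGCcggggtgga
MCM6 (chr2:135876513-135876604, minus strand, -161 to -70): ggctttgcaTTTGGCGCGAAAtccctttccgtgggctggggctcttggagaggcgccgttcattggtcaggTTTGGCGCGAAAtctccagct
MCM7 (chr7:100101390-100101415, minus strand, -18 to 8): ggggcgacgTTTCGCGCcaatttcgg
GINS1 (chr20:25407669-25407694, plus strand, -4 to 22): ctttgttcgGCGCCAAAgcgcggagc
GINS2 (chr16:85688970-85688995, minus strand, -41 to -16): tctcgccgtGGCGGGAAaacggcggc

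MCM6 carried the same 12-base stretch at 2 places, each read as TTTGGCGC on one strand and TTTCGCGC on the other. The 4 MCM genes with a window, MCM2, MCM3, MCM6 and MCM7, all held TTTCGCGC, against 0.515% of all windows. GINS1 held TTTGGCGC, which occurs in 0.652% of windows. GINS2 held TTCCCGCC, and MCM3 held it at 2 places, 1 of them farther upstream and not shown; 3.16% of windows hold this motif. GINS3 had no match to these letters in its window. The shorter CCAAT motif was present in 5 of the 7 genes, MCM3, MCM6, MCM7, GINS1 and GINS2, and in 34.6% of all windows. These are matches of letters in annotated windows, and no binding was measured.

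Inside the span of MCM7 lie the microRNA genes MIR106B, MIR93 and MIR25, which are processed from its introns. Their best known mature arms are printed from RefSeq (GRCh38.p14) with the seed, bases 2 to 8, in capitals.
hsa-miR-106b-5p (chr7:100094043-100094063, minus strand): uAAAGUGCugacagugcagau
hsa-miR-93-5p (chr7:100093815-100093837, minus strand): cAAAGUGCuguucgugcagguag
hsa-miR-25-3p (chr7:100093571-100093592, minus strand): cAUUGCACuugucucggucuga
The first 2 share the seed AAAGUGC. A library of polyadenylated RNA fragments does not measure mature microRNAs. Against 4496 reads of the host gene in replicate 1 and 4618 in replicate 2, the MIR25 row held 9 and 5 reads and the MIR93 row 1 and 2 reads, while MIR106B was not listed.

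All 6 MCM genes stood above all 4 GINS genes, and all 10 passed 1 RPKM in both libraries, as 66.7% of 17912 listed entries did. MCM3, which pairs with MCM5 in the ring, was highest at 102 RPKM in replicate 1 and 104 in replicate 2 (mean 103 ± 1.27). MCM7, part of the catalytic core with MCM4 and MCM6, followed at 77.5 and 80.9 RPKM (mean 79.2 ± 2.38). MCM4 had 61.9 and 62.7 RPKM (mean 62.3 ± 0.573), the smallest relative spread of the MCM genes. Both libraries thus kept these 3 genes apart, with no overlap of their values.

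MCM6 had 48.4 RPKM in replicate 1 and 46.4 in replicate 2 (mean 47.4 ± 1.40). MCM2, whose N-terminal tail also binds histones, had 35.1 and 34.2 RPKM (mean 34.6 ± 0.664). MCM5 was lowest of the ring at 28.2 and 27.3 RPKM (mean 27.7 ± 0.653). With the authors' exonic lengths, MCM3 and MCM5, which sit side by side in the ring, therefore held its highest and its lowest level. MCM3 exceeded MCM5 3.62-fold in replicate 1 and 3.80-fold in replicate 2. The order and this fold changed with the length chosen, as given below. The other members of the core, MCM4 and MCM6, differed 1.28-fold in replicate 1 and 1.35-fold in replicate 2.

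GINS2, the PSF2 subunit, was the highest GINS gene with 25.6 RPKM in replicate 1 and 26.9 in replicate 2 (mean 26.3 ± 0.897). GINS1, the PSF1 subunit, had 15.0 and 14.8 RPKM (mean 14.9 ± 0.121), the smallest relative spread of all 10 genes. GINS4, the SLD5 subunit, had 12.3 and 13.1 RPKM (mean 12.7 ± 0.578). GINS3, the PSF3 subunit, was lowest at 8.40 and 9.72 RPKM (mean 9.06 ± 0.935), with a coefficient of variation of 10.3% against 0.811% to 4.54% in the other 9 genes. The GINS genes spanned a 2.90-fold range (3.05-fold in replicate 1 and 2.77-fold in replicate 2), and the MCM genes a 3.71-fold range. The order of all 10 genes was the same in both libraries.

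**Figure D1:**
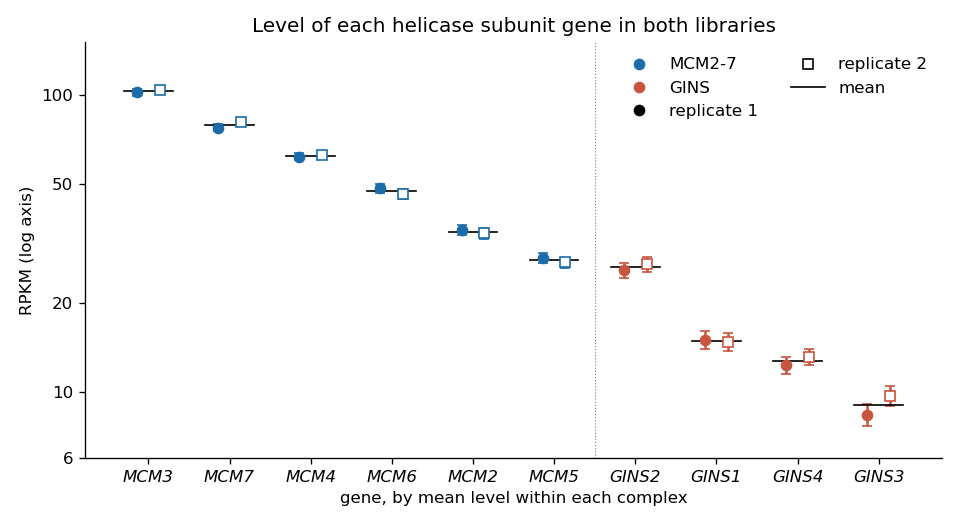
RPKM on a log axis for each gene, with the MCM genes left of the GINS genes, each ordered by mean level. Filled circles are replicate 1, open squares replicate 2, bars are exact 95% Poisson intervals of the recovered reads and black lines the means; MCM3 tops the plot at 103 RPKM, GINS3 ends it at 9.06, and MCM5 and GINS2 nearly meet.

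The library values of neighbours in this order did not overlap for any of the 9 neighbouring pairs. The gap was narrowest between MCM5 and GINS2, at 1.47 RPKM or 1.87 times their pooled SD. Their counting intervals overlapped in both libraries, at 27.2 to 29.3 RPKM for MCM5 and 24.1 to 27.2 for GINS2 in replicate 1. The order of MCM5 and GINS2 is therefore left undecided, though overlap of intervals does not show equal levels. GINS1 and GINS4 differed by 2.14 RPKM, 5.12 times their pooled SD, and their counting intervals overlapped in 1 of 2 libraries. In the other 7 pairs no intervals overlapped, and the differences ran from 4.73 times the pooled SD for GINS4 and GINS3 to 17.8 times for GINS2 and GINS1. An exact permutation test of 2 values against 2 cannot give a p under 0.33, so no test was made of these differences.

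The median level was 55.1 RPKM for the MCM genes against 13.6 for the GINS genes in replicate 1, a ratio of 4.04. In replicate 2 the medians were 54.5 and 13.96 RPKM, a ratio of 3.91. The MCM gene was higher in all 24 pairs of an MCM and a GINS gene in each library. Subunits are not replicates of a complex, and with 2 libraries the smallest p of a 2-sided exact sign test is 0.5, so the ratio is given without a test. The MCM genes took 0.171% of the reads in replicate 1 and 0.172% in replicate 2, and the GINS genes 0.0254% and 0.0269%. Within a complex the subunit genes varied far more than the libraries did. Their coefficient of variation was 48.2% among the MCM genes and 47.2% among the GINS genes, against a median of 2.14% between libraries for MCM genes and 3.97% for GINS genes. Divided by the length of 1 coding transcript per gene, the values among subunits were 46.2% for MCM and 27.3% for GINS.

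Among all listed entries the MCM genes lay between percentile 90.4 for MCM5 and 98.6 for MCM3, which ranked 244 of 17912. The GINS genes lay between percentile 69.4 for GINS3 and 89.7 for GINS2. In all, 9.62% of entries reached the level of MCM5, the lowest MCM gene, and 30.6% reached that of GINS3. Both complexes thus sit in the upper part of the distribution, the GINS genes over a wider stretch of it.

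**Figure D2:**
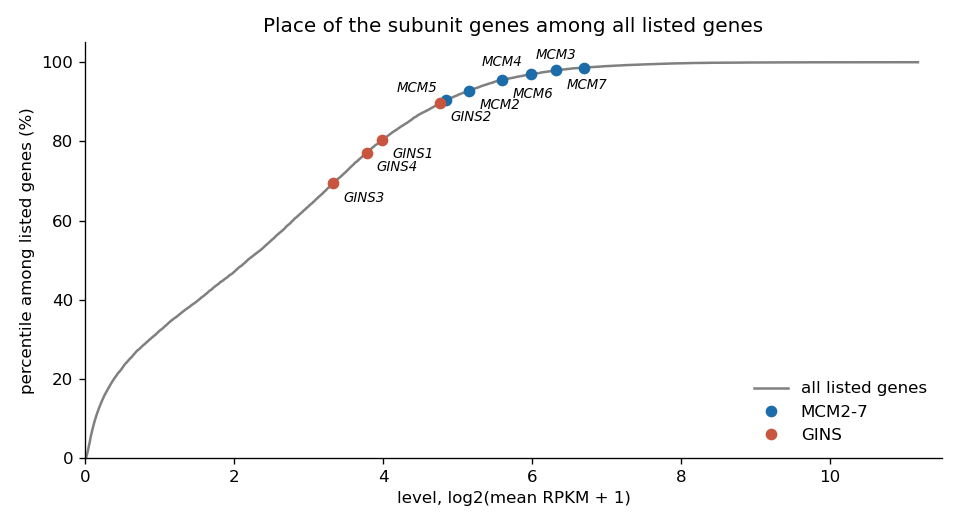
Percentile of each gene among the 17912 listed entries (vertical axis, %) against its level as log2(mean RPKM + 1); the grey line is all entries. The blue MCM points lie between percentiles 90.4 and 98.6 and the red GINS points between 69.4 and 89.7.

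Levels of different genes can be compared only through the length that divides the reads, and this choice changed the order within each complex. The length behind each RPKM was recovered with the reads. It was equal to the merged exons of all transcripts in GENCODE release 29 for MCM4 (6973 bases), MCM7 (4386) and GINS3 (5105). That merged length exceeds what a single transcript holds: the transcript with the longest coding sequence has 3157 bases for MCM4, 2957 for MCM7 and 1728 for GINS3. For MCM6 and MCM3 the length used was 1.11 and 1.14 times that of the coding transcript, for MCM4 2.21 times and for GINS3 2.95 times.

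With the reads divided by the length of that 1 transcript in place of the merged exons, MCM4 became the highest gene at 138 ± 1.27 RPKM, ahead of MCM7 at 117 ± 3.54 and MCM3 at 117 ± 1.44. The values of MCM7 and MCM3 then overlapped between libraries. MCM5 stood at 57.1 ± 1.34, MCM6 at 52.5 ± 1.55 and MCM2 at 45.1 ± 0.864, so that MCM2 replaced MCM5 as the lowest MCM gene with the length used for MCM5, 7268 bases. On this scale MCM3 exceeded MCM5 2.05-fold, and MCM4 exceeded MCM6 2.62-fold. MCM3, MCM4 and MCM7 thus lay at 117 to 138, and MCM2, MCM5 and MCM6 at 45.1 to 57.1.

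GINS3 moved most as a fold, 2.95 times, to 26.8 ± 2.76 RPKM, next to GINS2 at 31.6 ± 1.08. GINS1 followed at 18.9 ± 0.153 and GINS4 at 18.1 ± 0.819, a difference of 1.43 times their pooled SD. Their library values did not overlap, but their order is left undecided, as no test was made. The range within GINS was then 1.75-fold and that within the ring 3.05-fold. The MCM gene remained higher in all 24 pairs in each library, and the ratio of the medians was 3.81. Dividing by 1 transcript counts reads of every transcript of the gene and of retained introns in the merged exons. These levels are therefore upper limits for that transcript, unless counting dropped reads in bases shared with other genes. Whether it did is not given in the sources used here. Which transcripts the cells made was not measured, and the one with the longest coding sequence need not be the one most used. No other transcript was tried, so the rise of MCM4 and GINS3 holds for the transcripts chosen.

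**Figure D3:**
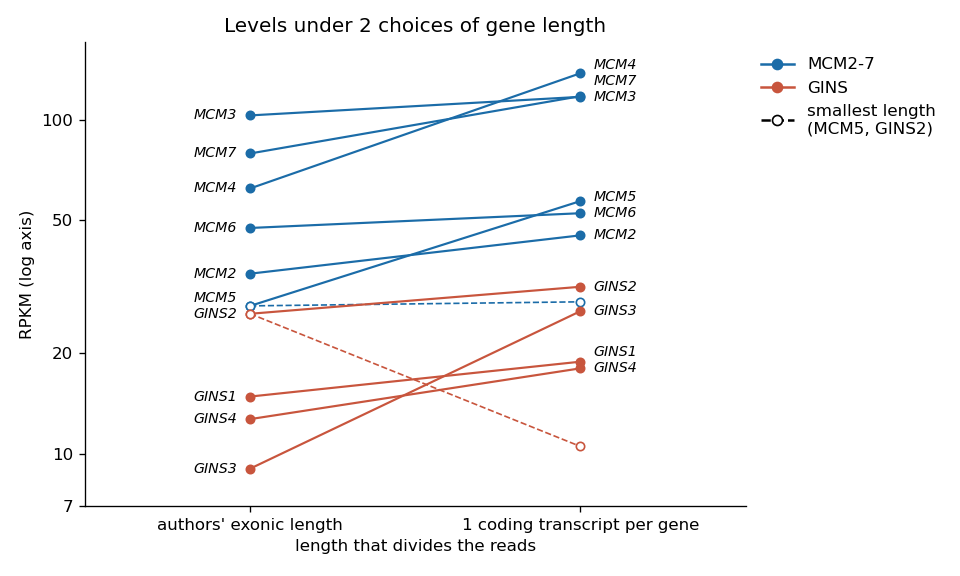
Mean level of each gene in RPKM (log axis) with the authors' exonic length (left) and with the length of 1 coding transcript (right); lines join the values of a gene, blue for MCM and red for GINS. MCM4 rises to the top at 138, GINS3 climbs from last place to 26.8, dashed lines show MCM5 and GINS2 with the smallest length their RPKM allow, and every filled MCM point on the right stays above every filled GINS point.

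Reads and lengths are recovered only up to a whole factor, which matters for MCM5 and GINS2. Their RPKM fit lengths of 3634 bases or a multiple for MCM5 and of 1073 bases or a multiple for GINS2. The multiples nearest to GENCODE, 7268 and 3219 bases, were used. With the smallest lengths, an alternative chosen after seeing the data, the levels per coding transcript would be 28.5 RPKM for MCM5 and 10.5 RPKM for GINS2, and GINS2 would be the lowest of the 10 genes. MCM5 would then again be the lowest MCM gene, and MCM3 would exceed it 4.10-fold. With the smallest length for MCM5 alone, also tried after seeing the data, MCM5 would lie below GINS2, and the MCM gene would be higher in 23 of 24 pairs. RPKM values and their order do not depend on this factor, while read numbers and counting intervals do. The smallest length of GINS2 is shorter than its coding transcript of 2673 bases, and so are the 2193 bases that MCM7 would also fit. That of MCM5 is longer than its coding transcript of 3534 bases.

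Read counts of the members differed little between the libraries. An exact binomial test on recovered reads with Benjamini-Hochberg adjustment over 17324 genes, which compares these 2 libraries and no conditions, called 0 of the 10 genes, against 1.07% of all genes. At an unadjusted p under 0.05 it called 2 of the 10, GINS3 and MCM7, against 9.36% of all genes. GINS3 collected 567 reads in library 1 and 646 in library 2, so that the log2 of replicate 1 over replicate 2 was -0.22 ± 0.083 (counting SE, exact binomial p = 0.00895, adjusted p = 0.263). MCM7 collected 4496 and 4618 reads, a log2 value of -0.069 ± 0.030 (exact binomial p = 0.0230, adjusted p = 0.396). These reads, and so its call without adjustment, rest on the 4386 bases used for MCM7. With the 2193 bases that it would also fit, its reads would be fewer and its counting error larger. The binomial test was not run with that length. The other 8 genes had adjusted p values from the same test between 0.752 and 1, with log2 ratios between -0.0999 and 0.053. MCM2, MCM5, MCM6 and GINS1 were higher in replicate 1, and the other 6 genes were higher in replicate 2. The median absolute log2 ratio was 0.047 over the members and 0.071 over 11814 expressed genes, which were not matched to the members for read number.

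**Figure D4:**
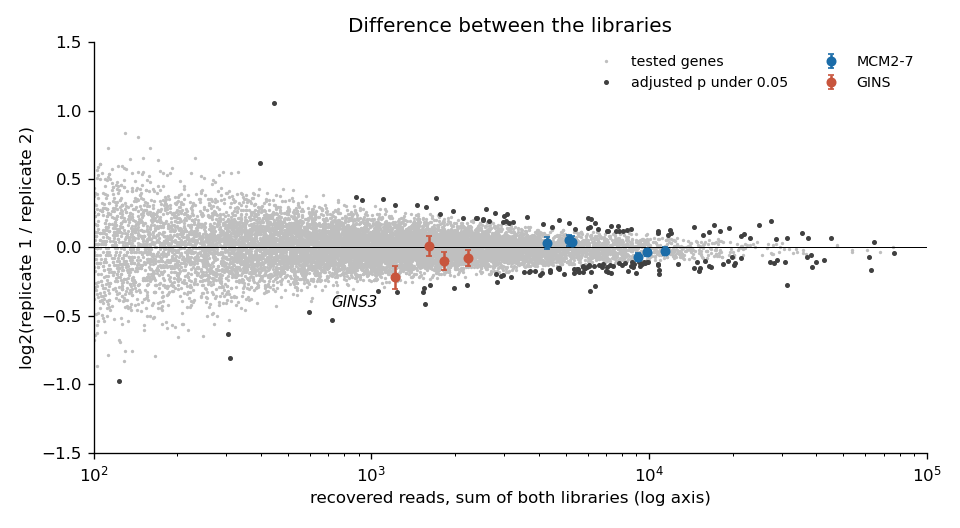
Log2 ratio of replicate 1 over replicate 2 against recovered reads summed over both libraries (log axis). Grey points are tested genes, dark points those with an adjusted p under 0.05, and coloured points the members with bars of 1 counting SE; GINS3, at -0.22, lies farthest from 0 among the members and is not called.

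Where the genes lie bears on how far their reads can be told from those of other genes. No stretch of 50 bases in an annotated transcript of any of the 10 genes recurred in a transcript of another of them, on either strand, so perfectly matching reads of that length could not be split between subunits. MCM3, MCM5, MCM6 and GINS1 had no 50-base stretch in common with any other gene. Shared stretches made up 19.1% of the distinct 50-base stretches of MCM2, all of them with AC023593.1, and 21.4% of those of GINS4, most of them with AC009630.2. Both partners are annotated as antisense genes that overlap the member on the opposite strand. For GINS3 the share was 10.4%. For MCM7 the share was 6.46%, all of it with AP4M1, an adaptor complex gene whose start overlaps that of MCM7 on the opposite strand. Whether counting used strand is not given in the sources used here, so reads in these overlaps cannot be assigned with certainty. The smallest ratio between the complexes, 3.03, was obtained without MCM2, GINS3 and GINS4, the genes with 10% or more of their exonic bases shared. AP4M1 itself stood at 4.23 ± 0.295 RPKM.

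The genes lie on 8 chromosomes and are no cluster (coordinates on GRCh38, GENCODE release 29). MCM2 lies on chromosome 3 from 127598223 to 127622436, MCM3 on chromosome 6 from 52264009 to 52284881 and MCM5 on chromosome 22 from 35400063 to 35425430. MCM6 lies on chromosome 2 from 135839626 to 135876426, and MCM7, the shortest at 9.21 kb, on chromosome 7 from 100092728 to 100101940. MCM4, on chromosome 8 from 47960185 to 47978160, is 1 base away from the annotated span of PRKDC, which encodes the catalytic subunit of DNA-dependent protein kinase and is read from the opposite strand. With the authors' exonic lengths, this head-to-head neighbour stood at 51.5 and 54.0 RPKM, close below the 61.9 and 62.7 of MCM4. Neighbouring genes were not put on the scale of 1 coding transcript, where MCM4 stood at 138 RPKM. GINS1 lies on chromosome 20 from 25407727 to 25452628, GINS4 on chromosome 8 from 41529206 to 41545046, and GINS2 (85676198 to 85690073) and GINS3 (58295080 to 58406144) both on chromosome 16. GINS3 has the longest annotated span at 111 kb. Other protein-coding genes within 2 kb that were listed stood lower than their member, between 4.14 RPKM for C16orf74 beside GINS2 and 39.3 RPKM for COPS6 beside MCM7.

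The other genes that load, start and unload the helicase were set beside the members from 5 lists of 38 genes, all of them listed, of which 37 passed 1 RPKM. CDC45, the third part of CMG, stood at 42.8 ± 0.172 RPKM, above all 4 GINS genes and above MCM2 and MCM5. Of the 7 genes that join or accompany the helicase at the fork all passed, led by CDC45, the fork protection gene TIMELESS at 28.7 ± 0.443 and MCM10, which helps to activate CMG, at 26.2 ± 1.24. TIPIN, the partner of TIMELESS, was lowest at 11.3 ± 0.284. Their median was 21.1 RPKM, between those of the 2 complexes.

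All 9 genes of MCM loading passed, led by CDT1 at 40.7 ± 0.247 RPKM and CDC6 at 40.3 ± 0.380, which bring the rings to the origin recognition complex. ORC1 followed at 20.2 ± 0.119, and ORC4 was lowest at 5.35 ± 0.0357. The 6 ORC subunit genes, which form another ATPase complex of unlike subunits, had a median of 11.3 RPKM and a 3.78-fold range. That is close to the 3.71-fold range of the MCM genes but at lower levels, both with the authors' exonic lengths. Genes of the 5 lists were not put on the scale of 1 coding transcript, where the MCM range was 3.05-fold. All 7 genes of helicase activation passed, led by RECQL4 at 50.1 ± 2.75, TOPBP1 at 32.5 ± 1.14 and the kinase gene CDC7 at 18.9 ± 0.840, with MTBP lowest at 6.18 ± 0.419.

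Of 6 other MCM family and MCM-binding genes 5 passed. MCMBP, which binds MCM proteins outside chromatin, led at 26.2 ± 0.577 RPKM, ahead of HROB, a partner of the MCM8 and MCM9 helicase, at 10.5 ± 0.207 and MCM3AP at 7.87 ± 0.144. The paralogues outside the ring were lower than every ring subunit: MCM8 at 7.71 ± 0.338, MCM9 at 1.12 ± 0.0082 and MCMDC2 at 0.102 ± 0.044. All 9 genes of helicase unloading passed, led by the unfoldase gene VCP at 128 ± 0.958, followed by FAF2 at 25.5 ± 1.12 and NPLOC4 at 24.8 ± 0.0856, with UBXN7 lowest at 5.95 ± 0.0905.

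Of the 38 genes, 7 lay above MCM5 and 22 within the range of the GINS genes. The 3 of them nearest to the MCM median in both libraries, by distance in log2(RPKM + 1), were RECQL4 (distance 0.18), CDC45 (0.48) and CDT1 (0.58). Nearest to the GINS median were ORC3 at 13.7 ± 0.0952 RPKM (distance 0.036), ORC6 at 14.6 ± 0.125 (0.11) and DBF4 at 13.3 RPKM in replicate 1 and 12.7 in replicate 2 (0.13). With 2 libraries of 1 group this is likeness of level alone, and only with the authors' exonic lengths.

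**Figure D5:**
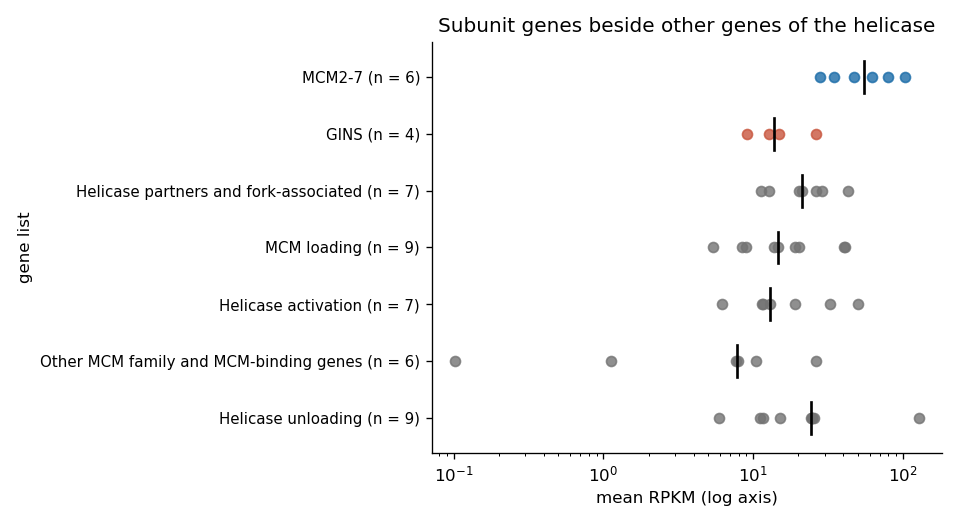
Mean RPKM (log axis) of the MCM genes, the GINS genes and 5 lists of other genes of the helicase, 1 point per gene, with a black bar at each median and the number of genes in brackets. The MCM genes have the highest median at 54.8 RPKM, GINS lies at 13.8 within the span of the other lists, and MCM9 and MCMDC2 trail on the left.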

How the data were processed

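Polyadenylated RNA of 2 libraries was measured by sequencing. The deposited values are RPKM, per the file headers, with 1 column per library. Trim Galore, HISAT2, featureCounts and the builds hg38 and GRCh38.p13 are named, per the submitters' processing notes; for versions, annotation, strand and filters the status is: not given in the sources used here. Of 18277 rows, 194 belonging to 58 symbols with several rows were left out, none of them a member. Values shared by several symbols were taken once, leaving 17912 entries.

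Reads were recovered from RPKM. Dividing one column by the other gave whole over whole, within a relative 2e-13, for 99.99% of genes. The totals follow from the 1019 genes of equal reads, and the whole factor per gene was set to bring the length nearest to GENCODE release 29. It came within 10% of GENCODE for 91.0% of 17324 matched genes, which the choice of factor partly builds in. The 2 libraries were set against each other gene by gene (exact binomial test, 2-sided), scaled by trimmed mean of M values (0.995 for replicate 2), with Benjamini-Hochberg adjustment at 0.05. Recovery and test were checked on simulated data with counting error alone, in which 200 of 16884 genes were changed 2-fold. The library totals were recovered. Of the changed genes 99% were called, and 3.41% of the 205 calls were unchanged genes. The check reused the recovered lengths, so it does not bear on the whole factor per gene, nor on smaller changes.

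The coding transcript per gene was the one with the longest coding sequence. Named genes were the members, the 3 highest and the lowest of each fixed list, the 3 nearest in level and neighbours within 2 kb. MCM8, MCM9 and the levels of other markers were added to these. The members and lists were chosen with earlier results of these data known. Python 3.11.15, numpy 2.4.6, scipy 1.17.1, pandas 2.3.3 and matplotlib 3.10.9 were used.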

Additional observations from a re-analysis of the deposited data

How the results depend on the processing

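The MCM gene was higher in all 24 pairs under each setting run, except 23 with the smallest length for MCM5 alone. All 10 genes passed 0.5 RPKM, 5 RPKM and 1 CPM, CPM being reads scaled by library total alone. Passing 0.5 RPKM follows from passing 1 RPKM. The ratio of the medians (3.97) was 3.91 to 4.04 without either replicate, 3.81 per coding transcript, 3.77 with 1 RPKM added, 3.75 for means and 3.03 without MCM2, GINS3 and GINS4. The range within MCM (3.71-fold) was 3.62 to 3.80 without either replicate and 3.05 per coding transcript; that within GINS (2.90-fold) was 2.77 to 3.05 and 1.75. With the smallest length for MCM5 and GINS2 these 3 values per coding transcript were 4.58, 4.82 and 2.54, and with that for MCM5 alone 3.71, 4.82 and 1.75, both alternatives chosen after seeing the data. Neighbours without overlap (9 of 9) numbered 8 per coding transcript and 7 with either choice of smallest lengths; with 1 library there is no range. Rescaling to TPM left the ratio, both ranges, the pairs and the neighbours at these values. It divides each library by a single constant, so ratios of genes within a library could not change. The median percentile (91.6) was 91.4 to 91.8 without either replicate, 90.4 among protein-coding genes, 87.4 among genes of at least 1 RPKM and 92.5 with protein-coding genes that are not listed taken as 0, by construction of the background. Members called different between the libraries numbered 0 under other scaling, background or a stricter threshold and 2 without adjustment. With 0 called at the main threshold, a stricter one could not call more. Beyond the lengths and backgrounds themselves, the cause was not tested. No paired analysis was possible because there is 1 group. Depth limits MIR25, MIR93 and MCMDC2.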
